A study of Mus musculus with 6 samples.

Results

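Glycolysis splits glucose into pyruvate in the cytosol and makes ATP without oxygen, and lactate dehydrogenase then turns pyruvate into lactate, which leaves the cell through monocarboxylate transporters. The pentose phosphate path branches off at glucose phosphate; its oxidative arm makes NADPH and its non-oxidative arm makes ribose for nucleotides and returns carbon to glycolysis. Proliferating myoblasts and mature muscle fibres use different isoenzymes for several of these steps, with muscle-type forms coming up as fibres form. Of 32973 genes in the deposited table, 35 that encode the steps from glucose uptake to lactate export, the pentose phosphate path and the entry of pyruvate into mitochondria were taken by symbol. All 35 had a row of their own. The rule was their place in the pathway and used no measured value, but results of these data were already known when the genes were listed.

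Expression was measured by RNA sequencing in primary muscle stem cells of mouse skeletal muscle, sorted by flow cytometry and kept 3 days in F10 medium with 20% serum and 5 ng/ml bFGF on collagen. Med23KO cells (3 libraries) carried Med23flox/flox with Pax7CreERT2, a Cre recombinase driven from the Pax7 locus and active only when bound by a drug such as tamoxifen. Ctrl cells (3 libraries) carried Med23flox/flox without the Cre. Both groups thus share the loxP-flanked Med23 alleles, and no group had Cre without them, so effects of Cre and of losing Med23 cannot be told apart. The labels give the treatment as none and state neither how Cre was activated nor the animals' age. Separate animals or cultures are not mentioned for the libraries. The p-values therefore measure the spread among 3 libraries of a group, and this spread may be technical.

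Values are FPKM, fragment numbers corrected for transcript length and for the size of the library, which allows levels of different genes to be set side by side. Between libraries they depend on the scaling, and the noncoding RNA gene Rmrp alone had 188043 ± 16214 FPKM in Med23KO and 231442 ± 7321 FPKM in Ctrl (SD, n = 3 each). For the pathway genes, scalings without it are given where they change a call. All genes together, Rmrp among them, summed to 599738 to 675095 FPKM in the Med23KO libraries and 697886 to 746973 FPKM in the Ctrl libraries. The read depth of the libraries is unknown, and between 12017 and 12465 genes lay above 1 FPKM in each library. Med23, a subunit of the Mediator complex, had 5.10, 5.86 and 4.23 FPKM in the Med23KO libraries, against 10.4, 11.7 and 10.2 FPKM in the Ctrl libraries (log2 fold change -0.96, limma adjusted p = 0.0197). All 7 markers of muscle stem cells and myoblasts, among them Pax7, Myf5 and Myod1, were above 10 FPKM in every library. By limma, 0 were called and 2 had an unadjusted p under 0.05, beside 2.91% and 19.7% of all tested genes. Of the 7, Itga7, an integrin subunit of muscle cells, did not overlap, at 58.1 ± 6.96 FPKM in Med23KO and 98.5 ± 17.2 FPKM in Ctrl (SD, n = 3 each; limma adjusted p = 0.0515, past the threshold in 4 of 10 other settings). Leukocyte markers summed to 1.82 to 2.90 FPKM in Med23KO and 1.55 to 2.93 FPKM in Ctrl, and 3 of 3 erythroid markers were at 0 throughout. Replicate 3 was often lowest: it had the lowest value of its group in 24 of the 32 tested pathway genes in Med23KO (56.2% of all tested genes) and in 22 of 32 in Ctrl (47.1% of all tested genes). Replicate 1 was often highest, in 21 of 32 in Med23KO (43.9% of all tested genes) and in 25 of 32 in Ctrl (41.9% of all tested genes).

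Glycolysis was highly expressed in both groups, and 1 of its 18 tested genes, Eno3, passed the test (5.56%, beside 2.91% of all tested genes). Of these 18 genes, 10 had a log2 fold change within 0.2 of 0, and the other 8, Eno3 among them, lay further out. Gapdh, Pkm, Eno1, Ldha and Aldoa ranked 40, 52, 105, 143 and 151 by mean FPKM among the 32973 genes. The 35 genes together summed to 6528, 5927 and 5144 FPKM in the Med23KO libraries, against 6541, 6006 and 5263 FPKM in the Ctrl libraries, so the groups overlapped almost entirely. Aldoc, Eno2 and Slc2a4 averaged under 1 FPKM over the 6 libraries and were therefore not tested.

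**Figure D1:**
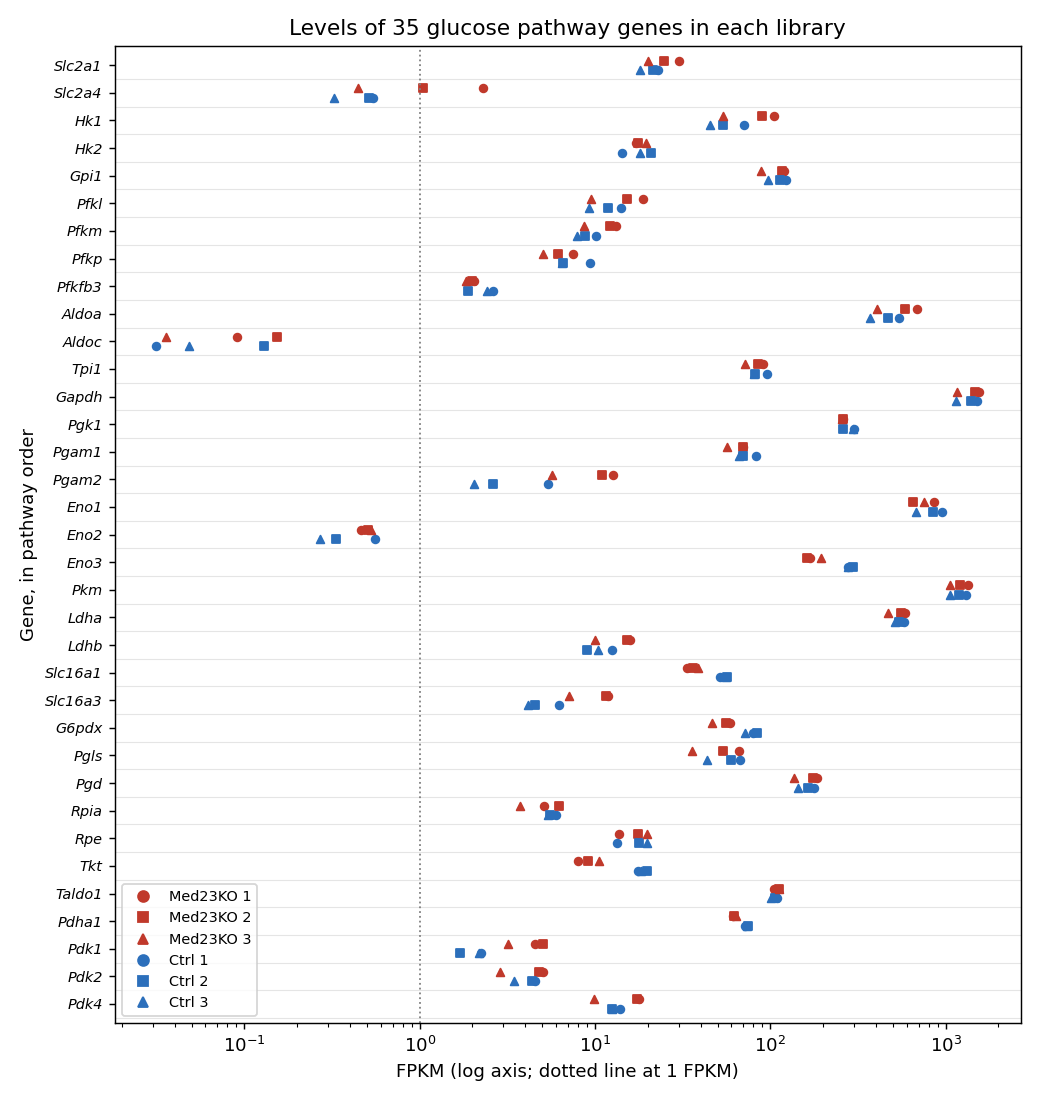
FPKM of the 35 genes (log axis) in each Med23KO (red) and Ctrl (blue) library, 1 symbol per replicate, in pathway order from uptake to pyruvate entry. Gapdh and Pkm lie above 1000 FPKM in every library, and Aldoc stays under 1 FPKM in all of them.

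Of the 32 genes tested with limma on log2(FPKM + 1), scaled as deposited, 3 fell in Med23KO cells and 0 rose (adjusted p under 0.05 over all 12336 genes). The 3 were Tkt, Eno3 and Slc16a1. That is 9.38% of the tested pathway genes, where 2.91% of all tested genes were called, 1.42% as lower and 1.49% as higher. With no adjustment, 8 of the 32 (25.0%) had p under 0.05, beside 19.7% of all tested genes. In 8 of the 32, or 25.0%, the libraries of the groups did not overlap; this was near the 24.7% seen over all tested genes and so is no result about the pathway. The median log2 fold change was 0.01 over the 32 genes, 0.00 over the 18 tested glycolysis genes and -0.15 over the 7 pentose phosphate genes, beside -0.03 over all tested genes. The authors' deposited table called 9 of the 33 genes that Cuffdiff tested (27.3%, against 15.7% of all genes it tested), 5 as higher (Hk1, Pdk1, Pgam2, Slc16a3 and Slc2a4) and 4 as lower (Eno3, G6pdx, Slc16a1 and Tkt).

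The calls changed with the libraries used. With 1 library left out, 0 of the 32 genes were called by limma without Ctrl replicate 2, Ctrl replicate 3, Med23KO replicate 1 or Med23KO replicate 2, Tkt alone was called without Ctrl replicate 1, and 8 without Med23KO replicate 3, namely Hk1, Pdk1, Pgam2 and Slc16a3 as higher and Eno3, G6pdx, Slc16a1 and Tkt as lower. In each of the fits with 0 calls, 7 of the 32 genes still had an unadjusted p under 0.05. Over all genes, this held for 1523 to 1911 of the 12281 to 12366 tested in these fits. In bulk RNA, fewer cells of a type and less RNA per cell cannot be told apart.

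**Figure D2:**
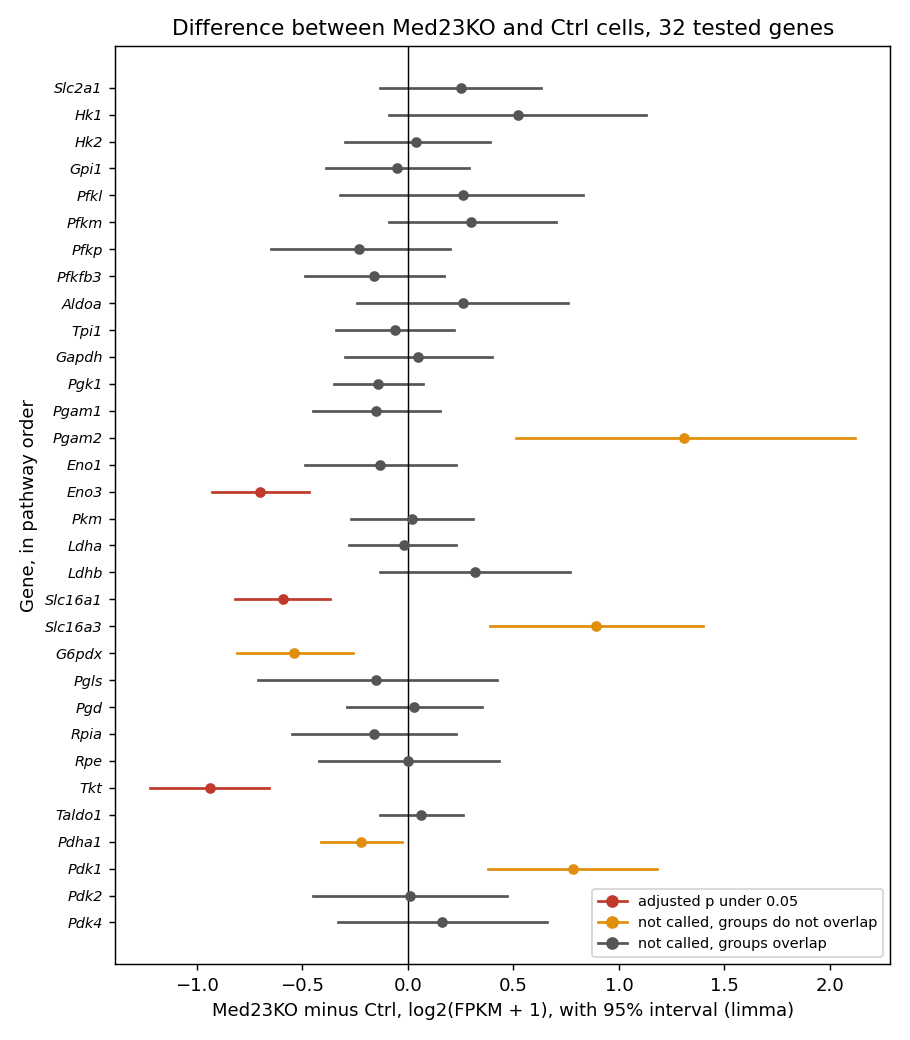
Log2 fold change (Med23KO minus Ctrl, log2(FPKM + 1)) with its 95% interval from limma for the 32 tested genes in pathway order. Red marks the 3 genes called lower, orange the 5 genes that were not called but whose groups do not overlap, and grey the others, most of which lie near 0.

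Glucose enters through transporters of the Slc2a family and is trapped by hexokinase. Slc2a1, the transporter of most dividing cells, had 30.3, 24.8 and 20.1 FPKM in the Med23KO libraries, against 23.0, 21.3 and 18.0 FPKM in the Ctrl libraries. The groups overlapped, and the log2 fold change of 0.25 missed the test (95% interval -0.13 to 0.63, limma adjusted p = 0.469). Slc2a4, the insulin-responsive transporter of mature muscle and fat, had 2.30, 1.04 and 0.442 FPKM in the Med23KO libraries, against 0.540, 0.514 and 0.324 FPKM in the Ctrl libraries. It made up 4.42% ± 2.47 of the summed FPKM of both transporters in Med23KO and 2.14% ± 0.327 in Ctrl (SD, n = 3 each), and the groups overlapped. The authors' deposited table called Slc2a4 higher (q = 0.000695, the smallest q it holds, also given for Tkt and Eno3).

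Hk1, the hexokinase of most tissues, had 105, 90.1 and 53.8 FPKM in the Med23KO libraries and 70.5, 53.6 and 45.5 FPKM in the Ctrl libraries. Med23KO replicate 3 lay within the Ctrl range, and the log2 fold change of 0.52 (standard error 0.261) missed the test (limma adjusted p = 0.337), while without that library the adjusted p was 0.0346. Hk2, the form that insulin induces in muscle, had 17.2, 17.6 and 19.6 FPKM in Med23KO and 14.2, 20.9 and 18.1 FPKM in Ctrl. Its values overlapped (log2 fold change 0.04, 95% interval -0.30 to 0.39), and its share of both hexokinases was 19.0% ± 6.76 in Med23KO and 24.4% ± 6.63 in Ctrl (SD, n = 3 each).

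Gpi1, which isomerises glucose phosphate, had 88.5 to 119 FPKM in Med23KO and 96.8 to 123 FPKM in Ctrl (log2 fold change -0.05). Phosphofructokinase, the committed step of glycolysis, is built from the liver-type Pfkl, the muscle-type Pfkm and the platelet-type Pfkp subunits. Pfkl had 18.8, 15.3 and 9.45 FPKM in the Med23KO libraries, against 14.0, 11.8 and 9.26 FPKM in the Ctrl libraries. Pfkm had 13.2, 12.2 and 8.67 FPKM in Med23KO and 10.1, 8.80 and 7.86 FPKM in Ctrl, and Pfkp had 7.51, 6.16 and 5.03 FPKM in Med23KO and 9.38, 6.61 and 6.46 FPKM in Ctrl. Each of the 3 overlapped between groups, with log2 fold changes of 0.26, 0.30 and -0.23. As a share of the family within a library, however, Pfkm took 33.3%, 36.3% and 37.4% in Med23KO against 30.3%, 32.3% and 33.3% in Ctrl. The Med23KO shares thus lay just above the Ctrl shares, the nearest values being 33.3% in each group to 3 digits (exact two-sided permutation p = 0.10, the smallest that 3 against 3 libraries allow, and 0.180 adjusted over the 9 isoform families). Pfkfb3, which makes the activator of phosphofructokinase, had 1.84 to 2.05 FPKM in Med23KO and 1.88 to 2.62 FPKM in Ctrl.

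Aldoa, the muscle-type aldolase that dividing cells also use, had 683, 583 and 404 FPKM in the Med23KO libraries, against 543, 467 and 371 FPKM in the Ctrl libraries. The groups overlapped (log2 fold change 0.26, 95% interval -0.24 to 0.76). Aldoc, the brain form, had at most 0.154 FPKM in any library, so Aldoa was 100.0% of the aldolase FPKM to 3 digits. Tpi1, which interconverts the triose phosphates, had 72.1 to 91.1 FPKM in Med23KO and 81.1 to 95.8 FPKM in Ctrl. Gapdh, often used as a loading reference, had 1556, 1472 and 1162 FPKM in the Med23KO libraries and 1502, 1393 and 1144 FPKM in the Ctrl libraries. Its log2 fold change was 0.05 (95% interval -0.30 to 0.40), and replicate 3 was lowest in both groups. Transcripts of 47 other genes of the annotation, none with a row in the table, matched Gapdh at 97% identity or more. Pgk1, the first ATP-making enzyme, had 257 to 259 FPKM in Med23KO and 258 to 298 FPKM in Ctrl (log2 fold change -0.14, 95% interval -0.35 to 0.07).

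Phosphoglycerate mutase and enolase stand next to each other in the pathway, and their muscle-type genes lay in opposite directions, of which only the fall of Eno3 passed the test. Pgam2, the muscle mutase, had 12.6, 10.9 and 5.67 FPKM in the Med23KO libraries, against 5.40, 2.62 and 2.03 FPKM in the Ctrl libraries. All Med23KO values lay above all Ctrl values, although Med23KO replicate 3 and Ctrl replicate 1 nearly met. The log2 fold change of 1.31 (standard error 0.346) missed the threshold (limma adjusted p = 0.0913, and 0.0158 without Med23KO replicate 3). It passed with equal sums without Rmrp (adjusted p = 0.0461) and with library weights (0.0107). Pgam1, the mutase of most tissues, had 69.8, 70.2 and 56.6 FPKM in Med23KO and 83.0, 69.7 and 66.2 FPKM in Ctrl, with overlapping groups. The share of Pgam2 in the summed FPKM was 12.6% ± 3.15 in Med23KO and 4.24% ± 1.66 in Ctrl (SD, n = 3 each; exact permutation p = 0.10, the smallest possible, 0.180 adjusted over 9 families). The summed FPKM of both mutases overlapped, at 82.4, 81.2 and 62.3 in Med23KO and 88.4, 72.3 and 68.3 in Ctrl.

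Eno3, the enolase of adult muscle (mm10 chromosome 11, positions 70657202 to 70662513, plus strand), fell. The values were 169, 161 and 194 FPKM in the Med23KO libraries, against 277, 297 and 276 FPKM in the Ctrl libraries. The groups were far apart, at 175 ± 16.8 FPKM in Med23KO and 283 ± 11.8 FPKM in Ctrl (SD, n = 3 each), or 61.7% of the Ctrl level. The log2 fold change was -0.70 (standard error 0.0978, limma adjusted p = 0.0197), and the adjusted p ran from 0.00499 to 0.129 with 1 library left out. No other transcript of the mouse annotation matched Eno3 at 97% identity or more over 200 bases. Eno3 carried 16.5%, 19.8% and 20.4% of the enolase FPKM in the Med23KO libraries, against 22.4%, 25.8% and 28.9% in the Ctrl libraries (exact permutation p = 0.10, 0.180 adjusted over 9 families).

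Eno1, the enolase of most tissues, needs care, because the table also lists Eno1b, a gene whose transcript is 99.5% identical to Eno1 over 1736 bases. Eno1 had 854, 653 and 756 FPKM in the Med23KO libraries and 957, 852 and 678 FPKM in the Ctrl libraries. Eno1b had 0, 63.7 and 0.0277 FPKM in the Med23KO libraries, against 0.050, 0.0386 and 65.3 FPKM in the Ctrl libraries. The libraries with Eno1b above 60 FPKM, Med23KO replicate 2 and Ctrl replicate 3, were those with the lowest Eno1 of their group. The same libraries were still the lowest of their group after Eno1b was added, at 717 and 743 FPKM, and how fragments were split between both genes was not tested. Added together, Eno1 and Eno1b had 775 ± 70.7 FPKM in Med23KO and 851 ± 107 FPKM in Ctrl (SD, n = 3 each), and with Eno1b added the Eno3 share remained apart, at 18.4% ± 1.92 in Med23KO and 25.1% ± 2.41 in Ctrl. Eno2, the neuronal enolase, had 0.465 to 0.531 FPKM in Med23KO and 0.269 to 0.553 FPKM in Ctrl.

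Pkm encodes the muscle-type pyruvate kinases, whose splice forms the gene-level table does not separate. It had 1341, 1208 and 1059 FPKM in the Med23KO libraries, against 1305, 1186 and 1063 FPKM in the Ctrl libraries, which overlapped fully (log2 fold change 0.02, 95% interval -0.27 to 0.31). Ldha, which makes lactate, had 585, 556 and 469 FPKM in Med23KO and 576, 541 and 514 FPKM in Ctrl (log2 fold change -0.02, 95% interval -0.28 to 0.23). Ldhb, the heart-type subunit, had 15.9, 15.2 and 9.97 FPKM in Med23KO and 12.5, 9.03 and 10.4 FPKM in Ctrl. Ldha made up 97.5% ± 0.332 of both subunits in Med23KO and 98.1% ± 0.247 in Ctrl, with overlapping libraries. A gene on the same strand as Pkm, Gm49759, shares 767 exon bases with it and reached at most 72.5 FPKM.

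Lactate leaves and enters cells through monocarboxylate transporters, and the 2 genes measured here lay in opposite directions, of which only the fall of Slc16a1 passed the test. Slc16a1, the transporter found in most tissues (mm10 chromosome 3, positions 104638668 to 104658462, plus strand), fell. The values were 33.3, 36.0 and 38.5 FPKM in the Med23KO libraries, against 51.4, 56.7 and 56.2 FPKM in the Ctrl libraries. The means were 36.0 ± 2.62 FPKM in Med23KO and 54.7 ± 2.94 FPKM in Ctrl (SD, n = 3 each), 65.7% of the Ctrl level, with no overlap. The log2 fold change was -0.59 (standard error 0.0966, limma adjusted p = 0.0271, from 0.0117 to 0.152 with 1 library left out). The call was lost with the libraries scaled to equal medians (adjusted p = 0.0511) or to equal sums without the noncoding RNA gene Rmrp (adjusted p = 0.0657).

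Slc16a3, the exporter of glycolytic muscle fibres, had 11.9, 11.6 and 7.13 FPKM in the Med23KO libraries, against 6.23, 4.55 and 4.15 FPKM in the Ctrl libraries. Its groups did not overlap, and the 2.06-fold higher mean missed the threshold (log2 fold change 0.89, standard error 0.215, limma adjusted p = 0.0738). It was past the threshold under 3 other scalings of the libraries, with the lowest adjusted p of these at 0.0290. Slc16a3 took 26.4%, 24.4% and 15.6% of the summed FPKM of both transporters in the Med23KO libraries, against 10.8%, 7.43% and 6.88% in the Ctrl libraries (exact permutation p = 0.10, 0.180 adjusted over 9 families). The sum itself was lower in each Med23KO library, at 45.3, 47.6 and 45.7 FPKM against 57.6, 61.2 and 60.4 FPKM in Ctrl.

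The stretches of 250 bases before the annotated start of 4 genes are shown because these genes form the pairs that lay in opposite directions, Slc16a1 with Slc16a3 and Eno3 with Pgam2. They are from RefSeq on GRCm38.p6 (mm10) and are written on the gene's strand. The stretch of Slc16a3 precedes a start inside the gene, since GENCODE vM21 also has one further upstream. The positions are chr3:104638414-104638663 (plus strand) for Slc16a1, chr11:120948817-120949066 (plus strand) for Slc16a3, chr11:70656926-70657175 (plus strand) for Eno3 and chr11:5803797-5804046 (minus strand) for Pgam2. Capitals mark matches, on either strand, to 3 motifs, the E-box CACGTG that MYC and MAX bind, the ACGTG core of hypoxia response elements (which every CACGTG also contains) and the TGACNNNGC core of antioxidant response elements.
Slc16a1: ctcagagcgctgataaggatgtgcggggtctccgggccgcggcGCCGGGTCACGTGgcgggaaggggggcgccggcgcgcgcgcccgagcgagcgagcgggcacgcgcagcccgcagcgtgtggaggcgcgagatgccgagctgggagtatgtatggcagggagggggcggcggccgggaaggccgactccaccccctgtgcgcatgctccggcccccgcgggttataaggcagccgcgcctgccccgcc
Slc16a3: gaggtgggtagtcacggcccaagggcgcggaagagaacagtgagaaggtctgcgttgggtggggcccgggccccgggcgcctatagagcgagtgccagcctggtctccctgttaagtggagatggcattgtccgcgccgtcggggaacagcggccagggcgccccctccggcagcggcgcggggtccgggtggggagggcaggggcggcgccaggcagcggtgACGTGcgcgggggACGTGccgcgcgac
Eno3: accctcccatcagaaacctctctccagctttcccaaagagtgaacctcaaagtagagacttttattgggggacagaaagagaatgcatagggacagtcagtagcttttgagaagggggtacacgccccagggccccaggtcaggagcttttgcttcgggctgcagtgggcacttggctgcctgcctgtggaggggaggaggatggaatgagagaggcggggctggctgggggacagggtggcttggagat
Pgam2: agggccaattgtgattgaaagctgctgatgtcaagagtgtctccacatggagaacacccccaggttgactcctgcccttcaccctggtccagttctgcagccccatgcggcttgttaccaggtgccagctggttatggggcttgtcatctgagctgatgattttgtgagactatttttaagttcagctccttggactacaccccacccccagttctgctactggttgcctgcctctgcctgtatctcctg

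Slc16a1 held an E-box that overlapped an antioxidant core, Slc16a3 held ACGTG at 2 places close to its start, and none of the 3 motifs was in the stretches of Eno3 and Pgam2. These genes were chosen after their values were seen. Among stretches not shown, those of Tkt and Pdk1 held none of the 3 motifs, and that of G6pdx held an antioxidant core. Of the 35 genes, 34 had a promoter window of 300 bases in the RefSeq table, with 49 windows in all. ACGTG was in 19 of these 49 windows (38.8%), against 19.7% of all 32544 windows of that length, and CACGTG in 10.2%, against 7.17%. TGACNNNGC was in 10.2% of the windows of the pathway genes and 12.4% of all windows. A match is a run of letters only, and base composition was not matched between the windows.

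**Figure D3:**
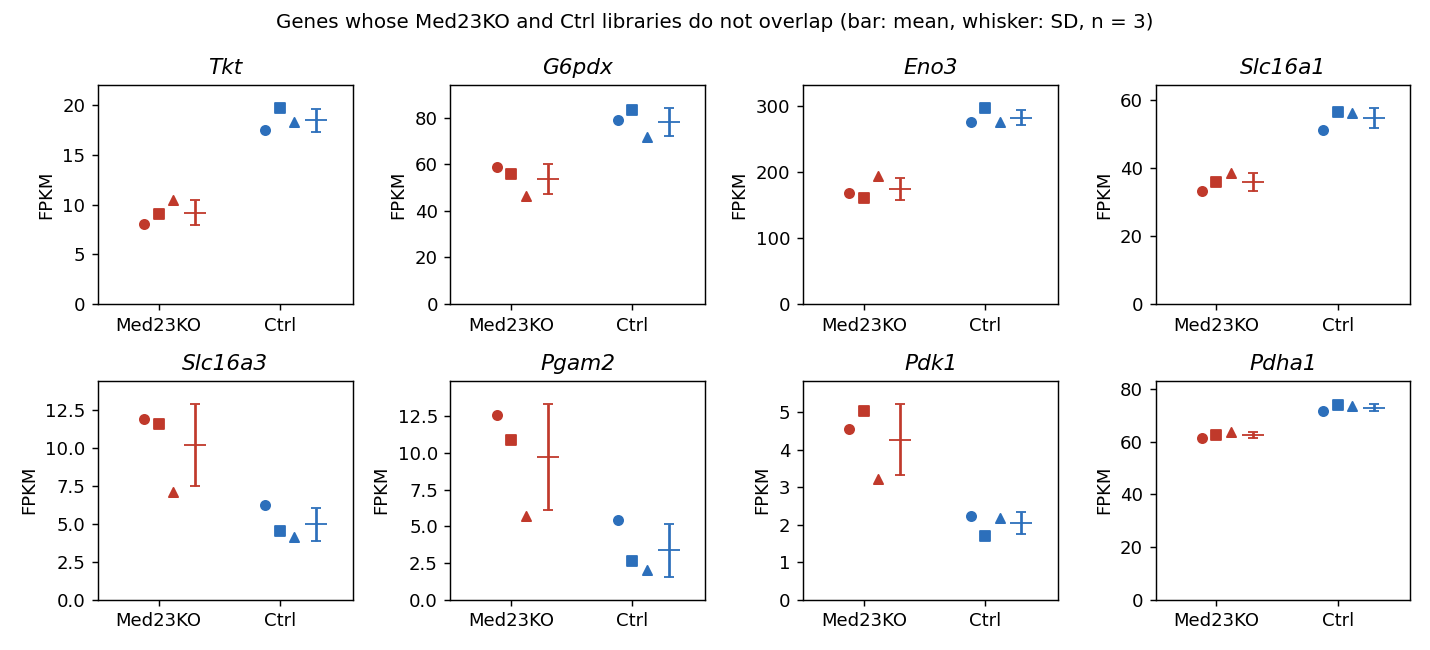
FPKM of the 8 tested genes whose Med23KO (left, red) and Ctrl (right, blue) libraries do not overlap, with a symbol per replicate, the mean and the SD (n = 3). Tkt, G6pdx, Eno3, Slc16a1 and Pdha1 were lower in each Med23KO library, and Slc16a3, Pgam2 and Pdk1 higher.

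In the pentose phosphate path, 1 of 7 genes fell (14.3%, beside 2.91% of all tested genes). The groups of this gene, Tkt, and of G6pdx did not overlap, and those of the other 5 overlapped. These 2 of 7, or 28.6%, were near the 24.7% of all tested genes, so the separation is no result about the path. Tkt, transketolase, moves carbon units between sugars in the non-oxidative arm and links it to glycolysis (mm10 chromosome 14, positions 30548359 to 30574720, plus strand). Its values were 8.03, 9.09 and 10.5 FPKM in the Med23KO libraries, against 17.5, 19.7 and 18.3 FPKM in the Ctrl libraries. No library overlapped, and the mean of 9.21 ± 1.24 FPKM in Med23KO was 49.8% of the 18.5 ± 1.13 FPKM in Ctrl (SD, n = 3 each). Tkt had the lowest adjusted p of the 32 genes, with a log2 fold change of -0.94 (standard error 0.121, limma adjusted p = 0.0168). It remained called in each of the 9 planned settings that kept all 6 libraries without a replicate block (highest adjusted p = 0.0379), but in only 2 of the 6 fits without 1 library (highest adjusted p = 0.112, without Med23KO replicate 2).

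G6pdx encodes glucose phosphate dehydrogenase, the first and rate-limiting enzyme of the oxidative arm (mm10 chromosome X, positions 74409483 to 74429194, minus strand). It had 58.8, 56.1 and 46.4 FPKM in the Med23KO libraries, against 79.3, 83.5 and 71.8 FPKM in the Ctrl libraries. The groups did not overlap, at 53.8 ± 6.55 FPKM in Med23KO and 78.2 ± 5.92 FPKM in Ctrl (SD, n = 3 each), but the log2 fold change of -0.54 (standard error 0.118) missed the threshold (limma adjusted p = 0.0609). It was past the threshold with quantile normalization (adjusted p = 0.0477), median scaling (0.0280), equal sums without Rmrp (0.0432) and library weights (0.0136). The libraries were strand-specific, per the labels' protocols. On the opposite strand, exons of Ikbkg share 418 bases with those of G6pdx, and Ikbkg had 25.0, 27.7 and 31.8 FPKM in Med23KO, against 18.6, 22.2 and 22.1 FPKM in Ctrl. Its difference thus ran against that of G6pdx. Whether the authors counted by strand is not given in the sources used here, so the part of these shared bases was not tested.

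The next enzymes of the oxidative arm overlapped between the groups. Pgls, the lactonase, had 66.4, 53.6 and 35.9 FPKM in the Med23KO libraries and 66.9, 59.7 and 43.7 FPKM in the Ctrl libraries, with a wide spread inside each group. Pgd, which makes the second NADPH and ribulose phosphate, had 185, 176 and 137 FPKM in Med23KO and 177, 165 and 144 FPKM in Ctrl (log2 fold change 0.03, 95% interval -0.29 to 0.35). In the non-oxidative arm, Taldo1, the transaldolase that works beside transketolase, had 105, 112 and 112 FPKM in Med23KO and 109, 106 and 101 FPKM in Ctrl. Its 95% interval, -0.13 to 0.26, was the narrowest of the 7. Rpia, the ribose phosphate isomerase, had 3.75 to 6.27 FPKM in Med23KO and 5.39 to 6.0 FPKM in Ctrl. Rpe, the epimerase, had 13.7, 17.5 and 19.8 FPKM in Med23KO and 13.4, 17.8 and 19.8 FPKM in Ctrl, so that replicate 1 was lowest in both groups and the means were equal to 3 digits.

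Pyruvate dehydrogenase turns pyruvate into acetyl-CoA in mitochondria, and its kinases switch it off by phosphorylation. Pdha1, the catalytic subunit, had 61.4, 62.4 and 63.9 FPKM in the Med23KO libraries, against 71.6, 74.1 and 73.5 FPKM in the Ctrl libraries. The groups were apart and tight, with a mean at 85.7% of the Ctrl level, yet the log2 fold change of -0.22 (standard error 0.0797) missed the threshold (limma adjusted p = 0.186). Pdk1, the kinase known as a target of hypoxia signalling, had 4.55, 5.03 and 3.21 FPKM in the Med23KO libraries, against 2.24, 1.70 and 2.19 FPKM in the Ctrl libraries. It was 2.09-fold higher on the FPKM scale without overlap, and its log2 fold change of 0.78 (standard error 0.172) missed the threshold (limma adjusted p = 0.0609, from 0.0126 to 0.253 with 1 library left out). It passed with quantile normalization (adjusted p = 0.0416), median scaling (0.0341), equal sums without Rmrp (0.0273) and library weights (0.00828).

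The other kinases overlapped between the groups. Pdk2 had 5.06, 4.77 and 2.86 FPKM in Med23KO and 4.54, 4.36 and 3.45 FPKM in Ctrl. Pdk4, the kinase that fasting and differentiation induce in muscle, had 17.9, 17.3 and 9.87 FPKM in Med23KO and 13.8, 12.5 and 12.5 FPKM in Ctrl, so that Med23KO replicate 3 was the lowest of all 6 libraries. Of the summed FPKM of Pdk1, Pdk2 and Pdk4, Pdk4 took 63.6% ± 1.58 in Med23KO and 67.7% ± 1.01 in Ctrl, without overlap (exact permutation p = 0.10, 0.180 adjusted over 9 families). This sum leaves out Pdk3, a further kinase of the family, which had 14.2, 15.9 and 14.1 FPKM in Med23KO, against 15.8, 16.4 and 17.9 FPKM in Ctrl, where it lay above Pdk4. With Pdk3 added, the direction turned and the groups overlapped, at 38.7% ± 5.21 in Med23KO and 36.1% ± 1.69 in Ctrl (exact permutation p = 0.50).

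**Figure D4:**
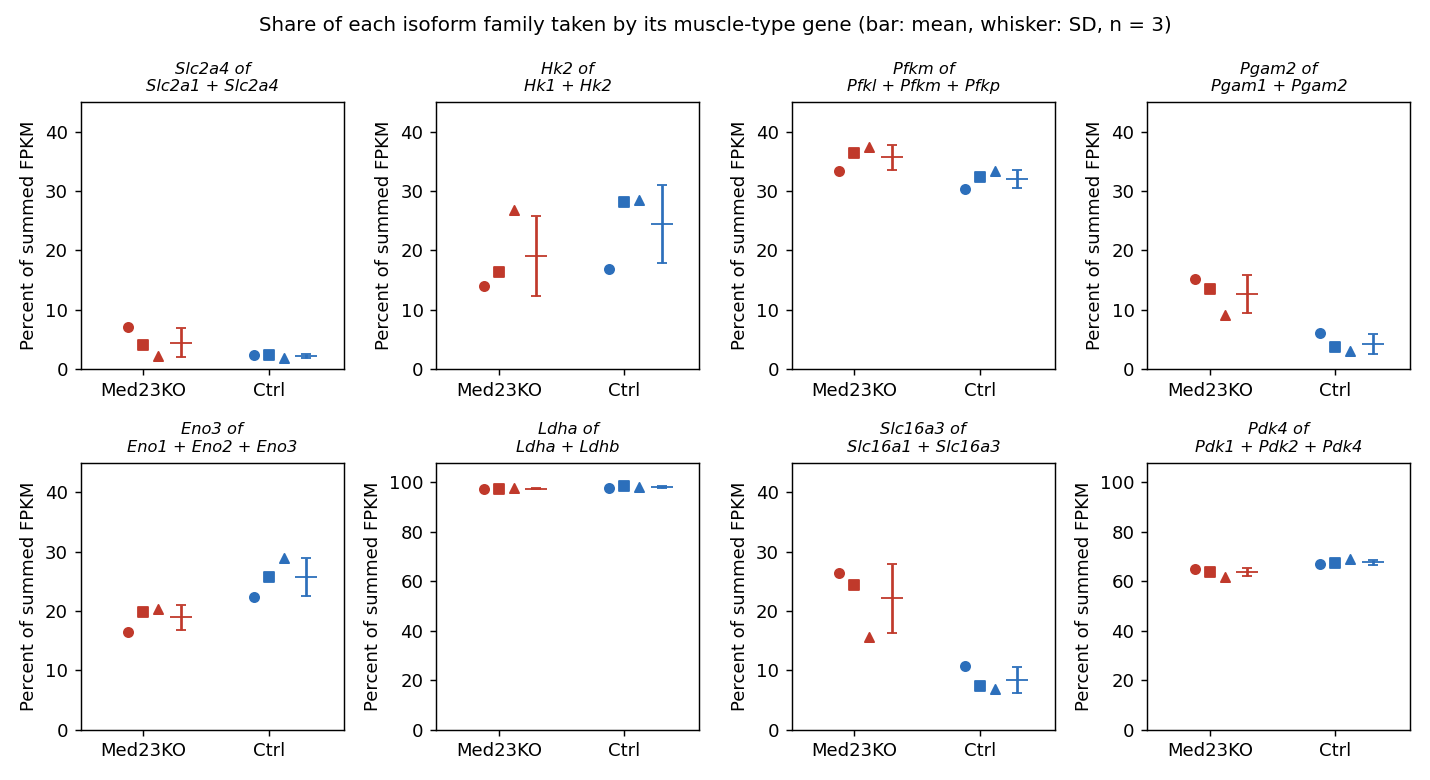
Share of the summed FPKM of an isoform family taken by its muscle-type gene (percent; panels differ in the upper end of the axis), in Med23KO (left, red) and Ctrl (right, blue) libraries with the mean and SD (n = 3). The shares of Pgam2 and Slc16a3 were higher and that of Eno3 lower in each Med23KO library. Those of Pfkm lay just above the Ctrl shares, and those of Slc2a4, Hk2 and Ldha overlapped. The Pdk4 panel leaves out Pdk3, with which the Pdk4 shares overlapped.

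The shares of the muscle-type genes had no common direction. By level, log2 fold changes were above 0 for Pgam2 (1.31), Slc16a3 (0.89), Pfkm (0.30), Aldoa (0.26), Pdk4 (0.16) and Hk2 (0.04). They were below 0 for Ldha (-0.02) and Eno3 (-0.70), and only Eno3 was called. Slc2a4, not tested, had a 2.75-fold higher mean with overlapping groups. Over the 9 families, the share was higher in every Med23KO library for Pgam2 and Slc16a3, and barely so for Pfkm (nearest values 33.3% in each group). It was lower in every Med23KO library for Eno3 and, only without Pdk3 in the sum, for Pdk4, and overlapped for Slc2a4, Hk2, Aldoa and Ldha. Where shares did not overlap, the exact permutation p was 0.10, the smallest possible, and 0.180 adjusted over the 9 families. Of 7 tested markers of differentiating muscle, 0 were called by limma and 5 had an unadjusted p under 0.05, beside 19.7% of all tested genes. Myog, Mymk, Acta1 and Myh3 were higher in every Med23KO library, which holds for 10.0% of all tested genes, while Tnnt3, Mb and Actn3 overlapped, with Actn3 at 80.2% of the Ctrl level. With Ckm, which was not tested, the 8 genes summed to 173, 184 and 170.3 FPKM in Med23KO, against 116, 89.3 and 57.1 FPKM in Ctrl. Ckm, the creatine kinase of mature muscle, was under 1 FPKM in all 6 libraries. Of 8 fibroblast and fibro-adipogenic markers, 0 were called by limma and 3 had an unadjusted p under 0.05 (19.7% of all tested genes). Dcn, Lum and Col3a1 were higher in every Med23KO library, as were 10.0% of all tested genes, and the other 5 overlapped. The sums were 349.8, 298 and 220.0 FPKM in Med23KO, against 218, 194 and 162 FPKM in Ctrl, of which Col3a1 alone had 286, 256 and 183 FPKM in Med23KO, against 182, 164 and 138 FPKM in Ctrl. The part of these cell states in the pathway genes was not tested.

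**Figure D5:**
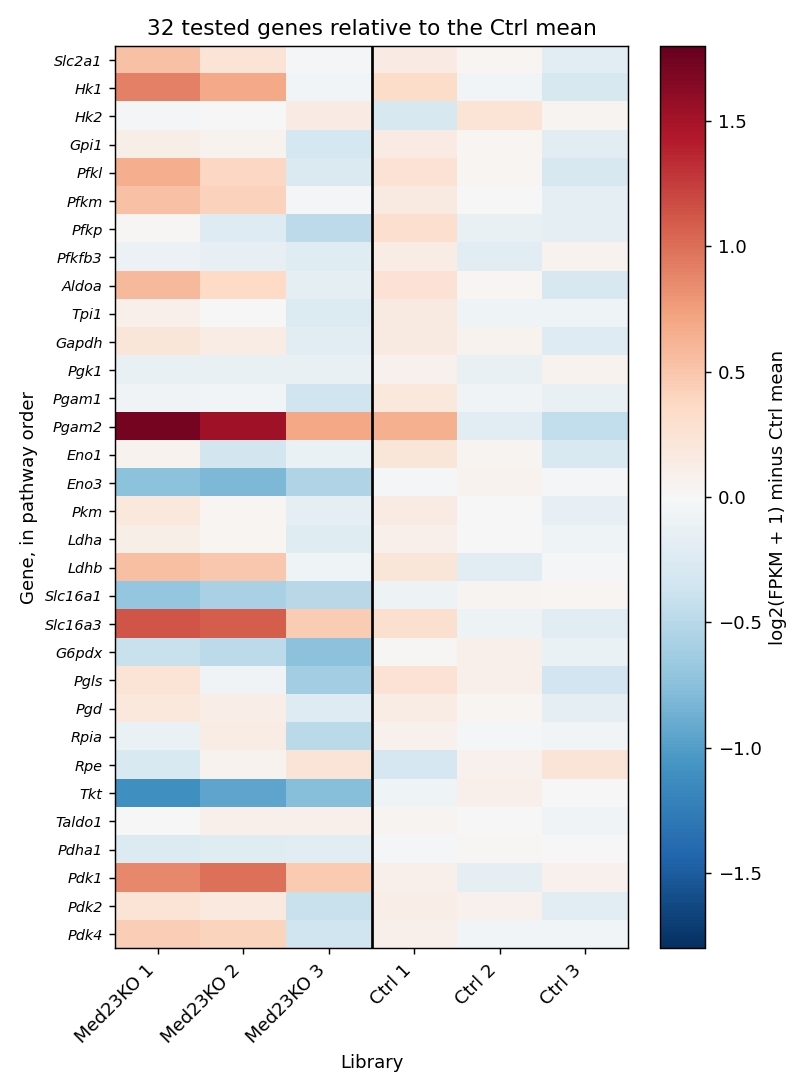
Log2(FPKM + 1) of the 32 tested genes in each library minus the Ctrl mean, with Med23KO libraries left of Ctrl libraries and genes in pathway order. Red is higher and blue lower than the Ctrl mean. Tkt, Eno3 and Slc16a1 are blue in each Med23KO library, and Med23KO replicate 3 is at or below the Ctrl mean for Hk1, Pfkl and Aldoa, where the other Med23KO libraries are red.

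In 4 lists of other genes of these pathways, no gene passed the test. Over all tested genes, 2.91% were called and 19.7% had an unadjusted p under 0.05. Of 11 tested genes for further glucose transporters and glycolytic isoforms, 0 were called by limma in either direction (2 with an unadjusted p under 0.05, median log2 fold change -0.06). Of 5 tested genes of ribose phosphate use and 11 of the pyruvate dehydrogenase complex and pyruvate entry, 0 and 0 were called (0 and 1 with an unadjusted p under 0.05), with medians of -0.06 and 0.05. Of 12 tested glycogen genes, 0 were called (4 with an unadjusted p under 0.05, median 0.13). The muscle glycogen phosphorylase gene Pygm, chosen here after its values were seen, had 35.2, 26 and 12.7 FPKM in the Med23KO libraries, against 11.4, 5.80 and 5.54 FPKM in the Ctrl libraries (log2 fold change 1.53, limma adjusted p = 0.0806). Its Med23KO values all lay above the Ctrl values.

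Among 19 tested regulators of these pathways, 1 was called by limma, where 2.91% of all tested genes were. Of the 19, 7 had an unadjusted p under 0.05, beside 19.7% of all tested genes. Myc, a transcription factor known to drive genes of glycolysis and lactate transport, fell to 20.4 ± 3.70 FPKM in Med23KO, against 38.8 ± 5.91 FPKM in Ctrl (SD, n = 3 each; log2 fold change -0.90, limma adjusted p = 0.0368). Hif1a, the oxygen-sensitive factor, had 46.3, 47.1 and 49.5 FPKM in the Med23KO libraries, against 29.1, 37.4 and 40.6 FPKM in the Ctrl libraries. Without overlap, its log2 fold change of 0.42 still missed the threshold (limma adjusted p = 0.139). Txnip, which restrains glucose uptake, had 37.6, 34.0 and 16.5 FPKM in Med23KO and 14.3, 14.3 and 10.9 FPKM in Ctrl (log2 fold change 1.03, limma adjusted p = 0.111). Its groups did not overlap, and the adjusted p was 0.00297 without Med23KO replicate 3. Txnip also passed with equal sums without Rmrp (limma adjusted p = 0.0488) and with library weights (0.0159). The authors' deposited table called both Hif1a (q = 0.00440) and Txnip (q = 0.000695, the smallest q it holds) higher. Of 14 tested genes that hypoxia induces outside glycolysis, Bnip3, which marks mitochondria for removal, rose to 20.2 ± 4.13 FPKM in Med23KO, against 10.5 ± 0.862 FPKM in Ctrl (SD, n = 3 each; log2 fold change 0.86, limma adjusted p = 0.0378). The other 13 were not called, where 2.91% of all tested genes were. Of the 14, 5 had an unadjusted p under 0.05, beside 19.7% of all tested genes, and the median of the 14 was 0.04. Both Myc and Bnip3 lost the call in 5 of 6 fits without 1 library, all but that without Med23KO replicate 3 (adjusted p up to 0.162 and 0.185), and with no filter on low values (adjusted p = 0.0761 and 0.0786).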

How the data were processed

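RNA sequencing of 6 libraries was used. Per the submitters' processing notes, the authors ran FastQC, cutadapt, STAR and Cuffdiff on the mm10 build, and deposited FPKM per library as Cuffdiff scales them. Versions and the annotation they used are not given in the sources at hand. The q-values in the authors' deposited table are those of Cuffdiff; its p-values and its test statistic, a score, both deposited too, were not used. No counts were given, so depth is unknown.

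Values were tested as log2(FPKM + 1) in the 12336 genes averaging 1 FPKM or more with limma 3.58.1 in R 4.3.3 (mean-variance trend, genotype as single factor, two-sided, Benjamini-Hochberg adjustment, threshold 0.05). Fold changes of low genes are understated on this scale. Isoform shares were compared by an exact two-sided permutation test (scipy 1.17.1). The limma fit was also run on simulated data in which each gene varied on its own. Shifts shared by a whole library, as in replicate 3, were not simulated, so that run does not bear on them. Near-identical transcripts were sought with BLAST 2.17.0 in GENCODE vM21 transcripts (97% identity, 200 bases). All libraries mapped to a sample by name. The genes, lists and tests were chosen with earlier results of these data known. Named with library values were pathway genes that were called or did not overlap, all isoform families, G6pdx, Gapdh and Pkm. From other lists, genes that were called were named, with Hif1a, Myc and Txnip. Of these, Myc and Bnip3 are given as mean and SD only. Library values of Pgls, Pgd, Taldo1, Rpe, Ikbkg, Eno1b, Pdk3, Pygm, Col3a1 and the genes of the closing observations were added after they were seen. Alternatives covered pseudocount, filter, scaling, variance model, weights, a replicate block, each library left out and the authors' q-values.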

Additional observations from a re-analysis of the deposited data

How the results depend on the processing

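The 3 falls of Tkt, Eno3 and Slc16a1 were also the 3 calls with a pseudocount of 0.1 or 5, no filter, a filter of 5 FPKM, no variance trend or, as a setting chosen after seeing the data, Eno1b added to Eno1. Among the 32 genes, 6 were called with quantile normalization, 5 with median scaling, 6 with equal sums without Rmrp, 8 with library weights (whose fit stopped short of its tolerance) and 9 in the authors' deposited table, and the range without 1 library was 0 to 8. Over all genes, 359 calls became 157 with no filter, 549 with median scaling, 646 with equal sums without Rmrp, 1700 with library weights and 2054 in the authors' deposited table, with 13 to 1154 without 1 library (23 without Ctrl replicate 2, 13 without Med23KO replicate 2, 1154 without Med23KO replicate 3). Rises made up 51.3% of the calls in the test as reported, 63.9% with median scaling and 75.7% with equal sums without Rmrp. Without 1 library, the log2 fold change of Med23 ran from -1.06 to -0.86, and its call was lost in 5 of 6 fits.

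With the replicate number as a block, 10 of the 32 genes were called (5 higher, 5 lower) and 2757 of all genes. Deviations of same-numbered libraries correlated at 0.437, -0.016 and 0.563 for numbers 1, 2 and 3. Libraries 1 and libraries 3 thus deviated together, and libraries 2 did not. The labels name no pairing, and whether same-numbered libraries were handled together was not tested. Not every library correlated best with its own number, since Med23KO replicate 2 had 0.337 with Ctrl replicate 1.

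The difference in the Pdk4 share, -4.11 percentage points, turned to 2.62 with Pdk3 added to the family, a setting chosen after seeing the data; the added gene is the only change. Genes near 0 changed sign in 12 cases. With library weights these were Hk2 (-0.17), Pfkfb3 (0.00), Tpi1 (0.05), Ldha (0.03) and Rpe (-0.15). With equal sums without Rmrp they were Gpi1 (0.05), Tpi1 (0.04) and Ldha (0.07), with quantile normalization Eno1 (0.05), Ldha (0.14) and Pdk2 (-0.05), and with median scaling Ldha (0.00). Without 1 library, the log2 fold changes ran from -0.10 to 0.17 for Hk2, -0.15 to 0.09 for Gpi1, -0.13 to 0.04 for Tpi1, -0.06 to 0.18 for Gapdh, -0.06 to 0.11 for Pkm, -0.09 to 0.07 for Ldha, -0.34 to 0.09 for Pgls, -0.05 to 0.16 for Pgd, -0.30 to 0.00 for Rpia, -0.15 to 0.14 for Rpe and -0.11 to 0.21 for Pdk2. The causes were not tested. With unknown depth, the precision of genes under about 5 FPKM, such as Pdk1 and Slc2a4, rests on the spread of 3 libraries.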

Other observations

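Several genes around glucose use that no comparison above describes did not overlap between the groups, yet missed the threshold, and they were chosen here after their values were seen. Slc2a12, a glucose transporter of muscle and fat, had 6.60, 5.98 and 2.78 FPKM in the Med23KO libraries, against 2.21, 2.0 and 1.47 FPKM in the Ctrl libraries (log2 fold change 1.02, limma adjusted p = 0.0920). Slc2a3, a transporter of high glucose affinity, lay the other way, at 2.61, 2.51 and 1.73 FPKM in Med23KO, against 4.42, 3.48 and 3.76 FPKM in Ctrl (log2 fold change -0.58, limma adjusted p = 0.10). Pcx, which turns pyruvate into oxaloacetate, had 10.6, 10.5 and 5.24 FPKM in Med23KO, against 5.12, 3.77 and 2.67 FPKM in Ctrl (log2 fold change 0.99, limma adjusted p = 0.116).

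Epas1, a relative of Hif1a, had 15.0, 10.6 and 2.52 FPKM in the Med23KO libraries, against 1.81, 1.52 and 0.750 FPKM in the Ctrl libraries (log2 fold change 1.91, limma adjusted p = 0.10). Vegfa, which hypoxia induces in many cells, was lower, with 34.9, 30.7 and 33.5 FPKM in Med23KO, against 37.1, 46.8 and 51.1 FPKM in Ctrl (log2 fold change -0.42, limma adjusted p = 0.138). Replicate 3 had the lowest value of its Med23KO group for Slc2a12, Slc2a3, Pcx and Epas1.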
